A study of Mus musculus with 4 samples.

Results

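The genes described here encode the antibody chains: the variable (V) genes of the heavy chain locus Igh and the light chain loci Igk and Igl, and the constant (C) genes of the same loci. They were chosen by their type in the GENCODE mouse annotation (IG_V_gene or IG_C_gene, with a symbol starting in Igh, Igk or Igl) and by at least 10 read counts summed over the 4 libraries. Of 229 such genes listed for all 4 libraries, 179 met this minimum, 168 V genes and 11 C genes, among 50488 genes listed in all. By locus, they were 83 of 113 Igh V genes, 82 of 100 Igk V genes and all 3 Igl V genes, with 7 of 8 Igh C genes, Igkc, and 3 of 4 Igl C genes. Left out were Ighe, the constant gene of IgE, with 8 counts in total, and Iglc4. At the edge of the minimum, Igkv2-112, Igkv1-132 and Ighv1-36 had 10 counts each and were kept, whereas Igkv10-95 had 9 and Igkv6-29 and Ighv11-1 had 8.

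The libraries were poly-A RNA-seq of mouse joints labelled as articular cartilage, with 1 library for each of 4 groups. By the account of the study, the knee samples held bone as well as cartilage and the hip samples cartilage alone. The hip pair comprised Cbfb f/f mice with no Cre (control) and tamoxifen (TMX) injected Cbfb f/f;Col2a1-CreERT mice. The knee pair comprised oil injected (control) and TMX injected mice of a shared genotype, Cbfb f/f;Aggrecan-CreERT. All 4 groups carried the floxed allele of Cbfb, which encodes the partner of the Runx transcription factors, and both Cre drivers are promoters active in chondrocytes. The labels give the treatment of the hip control as None, whereas the methods of the study have mice of this genotype injected with TMX or oil, so whether TMX differed between the hip libraries is not settled here. The Cre transgene did differ between them, and its part cannot be told apart from that of the deletion. Hip mice were younger than knee mice and came from another Cre line, so the joints were set side by side and not tested against each other. The study states a general number of mice per group and experiment, but how many animals entered a library was not given in the sources used here. Cbfb itself had 2548 counts for the hip control library against 2946 for the library labelled TMX (log2 ratio 0.41, 95% interval 0.33 to 0.48), and 3796 and 4572 in the knee libraries (log2 ratio -0.07, -0.13 to -0.01). These counts cover the whole gene, floxed and other exons together, and did not pass the rule for a fall given below in either pair. The libraries are therefore named by their labels throughout.

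An antibody is made of paired heavy and light chains. In developing B cells of the bone marrow, a V segment is cut and joined to D and J segments (heavy chain) or to a J segment (kappa and lambda light chains), and the joined V exon is spliced to a constant exon. The heavy constant gene sets the isotype: a B cell starts with Ighm (IgM) and Ighd (IgD), and class switching moves the same V exon to an Ighg gene (IgG), Ighe (IgE) or Igha (IgA). Plasma cells, which settle in bone marrow and mucosa, secrete antibody and carry very large amounts of these mRNAs. Articular cartilage has no vessels and no marrow of its own, and chondrocytes do not join V segments.

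The joining is directed by a signal that follows each germline V segment: a heptamer (consensus CACAGTG), a spacer, and a nonamer (consensus ACAAAAACC). It is cut off when a V segment is joined, and the spacer length decides which segments can pair. At the 3′ end of the V exons, a signal with at least 12 of its 16 heptamer and nonamer bases matching was found for 79 of 83 Igh, 81 of 82 Igk and 3 of 3 Igl V genes. All of those at Igh and Igl had the long spacer (23 bases, within 1) and all of those at Igk had the short spacer (12 bases, within 1). The sequences below, from the GRCm39 genome in the direction of transcription, give the last 20 bases of the V segment and then the signal, for the V genes with most counts or the largest changes described below. Capitals mark the heptamer and the nonamer.
Ighv1-81 (chr12:115883860-115883918, minus strand): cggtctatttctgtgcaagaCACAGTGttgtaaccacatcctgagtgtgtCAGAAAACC
Ighv7-1 (chr12:113859989-113860047, minus strand): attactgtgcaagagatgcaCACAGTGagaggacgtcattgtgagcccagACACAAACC
Ighv3-6 (chr12:114251733-114251791, minus strand): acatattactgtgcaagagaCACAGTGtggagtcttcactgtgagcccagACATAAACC
Igkv10-96 (chr6:68608919-68608966, minus strand): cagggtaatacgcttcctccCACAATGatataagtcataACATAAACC
Igkv15-103 (chr6:68414890-68414937, plus strand): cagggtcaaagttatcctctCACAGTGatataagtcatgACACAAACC
Igkv1-117 (chr6:68098792-68098839, plus strand): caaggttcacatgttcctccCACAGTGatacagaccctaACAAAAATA
Igkv4-58 (chr6:69477210-69477257, minus strand): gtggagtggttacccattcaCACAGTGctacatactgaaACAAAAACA
Iglv1 (chr16:18903728-18903786, minus strand): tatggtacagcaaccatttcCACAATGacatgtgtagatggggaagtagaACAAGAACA
Iglv2 (chr16:19079112-19079170, minus strand): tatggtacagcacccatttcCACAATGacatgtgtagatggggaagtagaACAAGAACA
Iglv1 and Iglv2 shared the heptamer, spacer and nonamer, and their heptamer differed from the consensus, as did that of Igkv10-96.

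V genes also share a promoter element, the octamer ATGCAAAT or its reverse complement ATTTGCAT, bound by Oct factors. In windows from 250 bases before to 50 bases after the annotated start, the octamer was present for 131 of 168 V genes (78.0%), compared to 2.30% of all 78287 annotated genes and 0 of 11 C genes. Its direction went with the locus: all 68 Igh V genes that held it had it in the forward direction, whereas at Igk 60 of 82 V genes held the reverse form, 1 of them with the forward form as well. The 48 V genes under 10 counts held it about as often (36 genes, 75%). The TATAA element, searched on both strands, was present for 58.3% of V genes and 32.0% of all genes.

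Immunoglobulin RNA was a small share of the hip libraries and a larger one of the knee libraries, whose samples also held bone. The 179 genes together took 8726 counts for the hip control library against 3252 for the library labelled TMX, or 227 and 94.0 CPM (counts per 1000000 counts on genes). In the knee they took 151036 and 142646 counts (4408 and 3731 CPM). A log2 ratio below is the library labelled TMX over its control after TMM scaling, with 0.5 added to each count, and its interval (95%, exact) covers counting error only, since no group had a replicate. Counts given per library are unscaled. A gene was called higher or lower when it had at least 10 counts over the pair (tested), when the size of its ratio was 1 or more, and when its interval did not include 0. Over all genes, 20.2% of 19856 tested were called higher and 16.3% lower in the hip pair, and 9% of 21131 higher and 6.81% lower in the knee pair. These shares are the background for each count of called genes below. The summed ratio was -1.23 (-1.28 to -1.17) in the hip, and -0.42 (-0.43 to -0.41) in the knee, below the size for a call.

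Among the C genes, the hip pair differed mainly in Ighm, the mu chain of IgM. Ighm (chr12:113382178-113386350, minus strand) had 4495 counts in the hip control library, 200 in the hip library labelled TMX, 14650 in the knee control library and, for the knee library labelled TMX, 12351. The hip ratio was -4.29 (-4.50 to -4.09) and the knee ratio -0.59 (-0.62 to -0.55). By contrast, Igha (chr12:113218450-113223856), the alpha chain of IgA, stood at 2242 and 1933 counts in the hip pair, compared to 66662 and 65623 in the knee pair. Its ratios were -0.02 (-0.10 to 0.07) and -0.36 (-0.38 to -0.35), so the hip libraries did not differ in Igha beyond counting error. Ighd, the delta chain carried beside Ighm by mature naive B cells, had 40 and 23 counts in the hip pair, and 1115 and 1138 in the knee pair (ratios -0.59, -1.41 to 0.17, and -0.31, -0.43 to -0.19). Thus 112 counts of Ighm stood against each count of Ighd in the hip control library, compared to 8.70 in the hip library labelled TMX and 13.1 and 10.9 in the knee libraries. Without Ighm, the summed ratio of the other heavy C genes was -0.09 (-0.17 to -0.00) in the hip. Ighm therefore carried nearly the whole heavy chain difference of the hip pair.

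**Figure D1:**
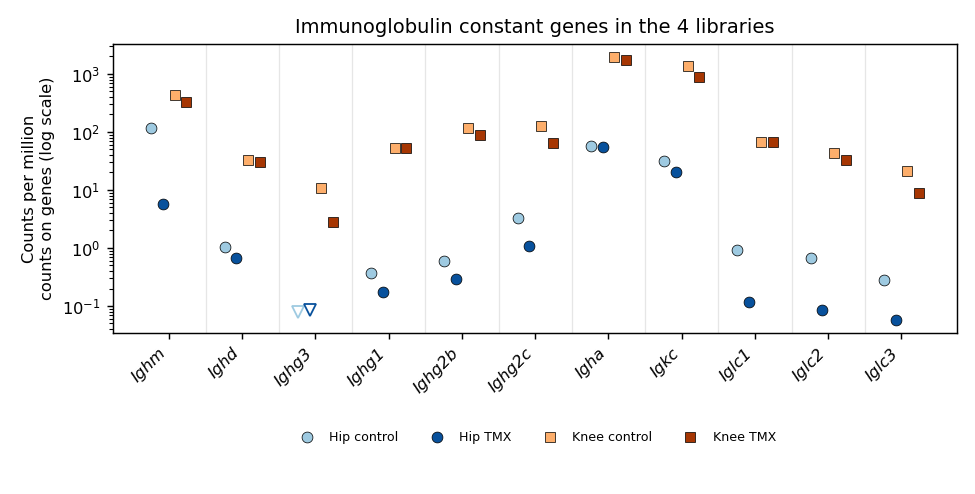
CPM on a log axis of the 11 constant genes, 1 point per library; open triangles mark genes with 0 counts, drawn at the level of 3 counts. Ighm stood at 117 CPM for the hip control library against 5.78 for the library labelled TMX, while Igha stood at 58.3 and 55.9.

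Of the 4 IgG genes, Ighg2c was called lower in both pairs, Ighg3 in the knee, and the others in neither. Ighg2c had 128 and 38 counts in the hip pair, and 4360 and 2441 in the knee pair (-1.54, -2.12 to -1.02, and -1.18, -1.25 to -1.10). Scaled by library size in place of TMM, with or without immunoglobulin features in that size, every knee ratio stood 0.18 higher and the knee call of Ighg2c was lost (-0.99 with library size alone). Ighg3 had 0 counts in both hip libraries, which allows up to 0.0780 CPM in the control and 0.0867 CPM in the library labelled TMX. In the knee Ighg3 went from 365 to 107 counts (-2.10, -2.43 to -1.80), the largest fall of a C gene there. Ighg2b had 23 and 10 counts in the hip pair, and 3958 and 3317 in the knee pair, and Ighg1 14 and 6, and 1839 and 1994. Their knee ratios were -0.59 (-0.66 to -0.53) for Ighg2b and -0.22 (-0.31 to -0.13) for Ighg1. Thus IgG subclasses did not move alike in the knee: Ighg2c was 41.4% of IgG counts for the control library against 31.1% for the library labelled TMX, Ighg1 was 17.5% and 25.4%, and Ighg3 was 3.47% and 1.36%.

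As shares of heavy chain constant counts, Igha led and Ighm came next in 3 of the 4 libraries. Igha held 87.5% (86.0 to 88.8) in the hip library labelled TMX, 71.7% (71.4 to 72.0) for the knee control library against 75.5% (75.2 to 75.7) for the library labelled TMX. In the hip control library Ighm led with 64.8% (63.6 to 65.9) and Igha held 32.3% (31.2 to 33.4). Ighm held 9.05%, 15.8% and 14.2% in the other 3 libraries. IgG held 2.38% and 2.44% of the hip and 11.3% and 9.04% of the knee counts. Counted per base of annotated exon, the hip control library still had more Ighm (71.0%) than Igha (25.0%), and the other 3 more Igha than Ighm.

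**Figure D2:**
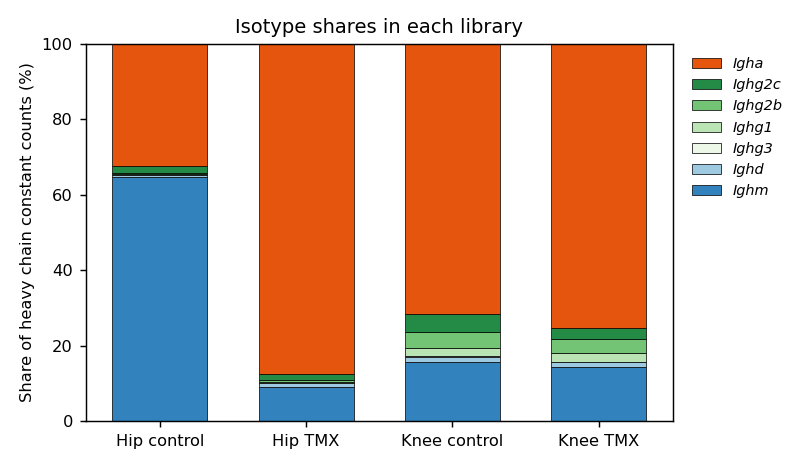
Share (%) of heavy chain constant counts on each of the 7 constant genes, 1 bar per library. Ighm filled 64.8% of the hip control bar and between 9.05% and 15.8% of the others, where Igha filled at least 71.7%.

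Among light chain C genes, the lambda genes were called lower in the hip, and Igkc was called in neither pair. Igkc (chr6:70703419-70703950, plus strand), the only kappa constant gene, had 1197 and 703 counts in the hip pair, and 46680 and 33496 in the knee pair, with ratios of -0.57 (-0.71 to -0.43) and -0.82 (-0.84 to -0.80). The lambda constant genes on chromosome 16 were all called lower in the hip on few counts: Iglc1 went from 35 to 4, Iglc2 from 26 to 3 and Iglc3 from 11 to 2. In the knee, Iglc3 went from 722 to 334 counts and was called lower (-1.45, -1.64 to -1.26), Iglc1 from 2334 to 2517 (-0.23, -0.31 to -0.15), and Iglc2 from 1498 to 1265 (-0.58, -0.69 to -0.47). Iglc2 and Iglc3 each overlap another annotated gene, whose reads cannot be assigned with certainty. Kappa held 94.3% and 98.7% of light chain constant counts in the hip pair, with 91.1% and 89.1% in the knee pair. In total, 5 of 10 C genes tested in the hip were called lower (background 16.3%) and 3 of 11 in the knee (background 6.81%), and all C genes tested had ratios below 0 in both pairs under each of the 4 scalings tried. Under both library size scalings the knee count was 2 of 11, without Ighg2c.

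The ratio of heavy to light constant counts also set the hip control library apart. Ighm had 3.76 counts for each Igkc count in that library, compared to 0.284 in the hip library labelled TMX and 0.314 and 0.369 in the knee libraries. Igha per Igkc ranged only from 1.43 to 2.75 over the 4 libraries. Jchain encodes the joining chain that links IgA and IgM into polymers and is not a member. It had 437 and 427 counts in the hip pair, and 14975 and 13397 in the knee pair. Igha per Jchain count was 5.13, 4.53, 4.45 and 4.90 in the hip control, hip TMX, knee control and knee TMX libraries, whereas Ighm per Jchain count was 10.3, 0.468, 0.978 and 0.922.

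V genes behaved otherwise in the knee than the C genes they are spliced to. The V genes together had 515 counts for the hip control library against 330 for the library labelled TMX, and 6853 and 18063 in the knee libraries. The summed ratio was -0.44 (-0.65 to -0.24) in the hip and 1.06 (1.02 to 1.10) in the knee, where the summed C genes had -0.55 (-0.56 to -0.54). Over all 216 V genes listed, with those under 10 counts, the knee libraries had 6889 and 18122. Per locus, Igh V genes went from 1476 to 7118 counts in the knee (1.93, 1.85 to 2.01), Igk V genes from 4540 to 9155 (0.67, 0.62 to 0.72) and Igl V genes from 837 to 1790 (0.76, 0.64 to 0.88). In the hip, Igh V genes had 111 and 118 counts (0.29, -0.10 to 0.67), Igk V genes 385 and 200 (-0.75, -1.0 to -0.50) and Igl V genes 19 and 12 (-0.44, -1.64 to 0.65). Igh V genes thus were the locus with the highest ratio in each pair, although the hip difference lay within counting error.

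**Figure D3:**
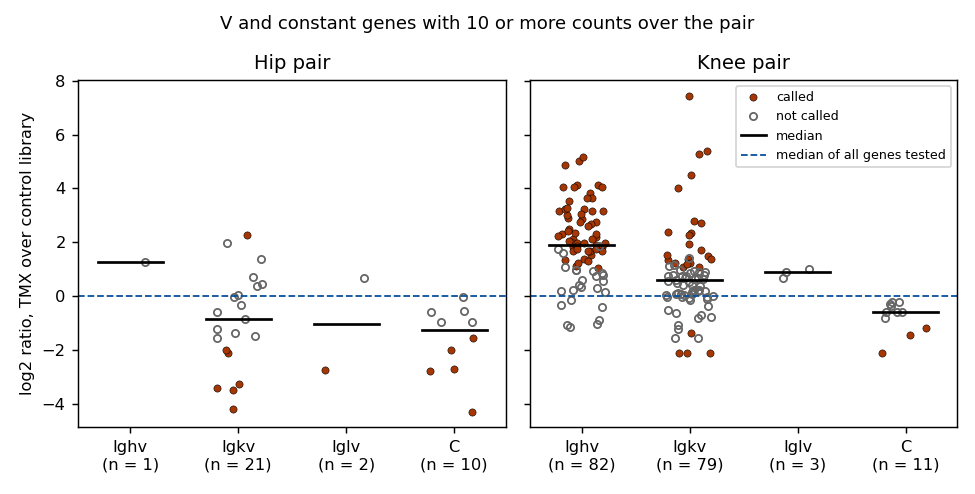
log2 ratio of the library labelled TMX over its control for V genes of each locus and for constant genes (C), with filled points for called genes, bars for medians and a dashed line for the median of all genes tested. In the knee, 82 tested Igh V genes had a median of 1.88, and the 11 C genes lay between -2.10 and -0.22.

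Gene by gene, 79 of 164 V genes tested in the knee were called higher (background 9%) and 4 lower (background 6.81%), and the median ratio was 1.11 beside 0.02 over all genes. A V gene could enter through the library labelled TMX alone, so the same was counted over the 110 V genes with at least 10 counts in the knee control library, a limit chosen after seeing the data. Of these, 90 had ratios above 0, 43 were called higher and 1 lower, and the median was 0.78. Among Igh V genes, 57 of 82 tested were called higher and 0 lower, with a median of 1.88. With 10 counts in the knee control library, 31 of 47 Igh V genes were called higher and 0 lower, with a median of 1.67. Igk V genes were more mixed, with 22 of 79 called higher and 4 lower and a median of 0.61, or 12 and 1 of the 60 with 10 counts in the control library, with a median of 0.40. In the hip, only 24 of 168 V genes had the 10 counts needed, of which 7 were called lower (background 16.3%) and 1, Igkv8-27 with 2 and 10 counts, higher (background 20.2%). All 7 were among the 14 V genes with at least 10 counts in the hip control library, so they could enter through that library alone. With 10 counts asked of each hip library, 2 V and C genes together were called lower and 0 higher.

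The 5 Igh V genes with most counts over the 4 libraries were called higher in the knee, a description only, since most of those counts came from the knee library labelled TMX. The leading Igh V genes of the knee control library, Ighv1-80 (85 and 179 counts, ratio 0.73) and Ighv9-3 (77 and 147, ratio 0.59), were not called. Ighv1-81 (chr12:115883899-115884332) had 53 counts for the knee control library against 511 for the library labelled TMX (2.92, 2.52 to 3.37). It had 1 and 0 counts in the hip. Ighv1-64 went from 61 to 339 counts, Ighv1-26 from 56 to 267, Ighv3-6 from 56 to 250 and Ighv14-2 from 73 to 236, with ratios from 1.35 to 2.13. In the hip each of these 5 genes had at most 6 counts in either library. Ighv7-1 (chr12:113860028-113860566) showed the second largest rise among V genes with 50 counts, from 6 to 269 counts (5.03, 4.01 to 6.61). By family, Ighv7 had 12 and 385 counts in the knee (4.61, 3.84 to 5.63) and Ighv5 92 and 730 (2.64, 2.33 to 2.98), whereas the large Ighv1 family of 45 genes had 821 and 3784 (1.86, 1.76 to 1.98) and Ighv9 102 and 239 (0.88, 0.55 to 1.24). Position in the locus separated these little: the 41 Igh V genes nearest to the D and J segments had a knee ratio of 2.02 (1.90 to 2.15) and the 42 farther ones 1.85 (1.75 to 1.96).

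At Igk, the leading V genes differed from each other. Igkv10-96 (chr6:68608947-68609426) had 9 and 13 counts in the hip pair, and 303 and 1073 in the knee pair (1.48, 1.30 to 1.67). Igkv15-103 had 12 and 2 in the hip (-2.12, -5.59 to -0.22) and 145 and 477 in the knee (1.38, 1.11 to 1.66). Of the 3 leading Igkv1 genes, Igkv1-117 and Igkv1-135 did not rise with them in the knee. Igkv1-117 had 27 and 2 counts in the hip (-3.26, -6.67 to -1.56) and 356 and 432 in the knee (-0.06, -0.27 to 0.15), and Igkv1-135 had 19 and 1 (-3.50, -9.43 to -1.40) and 245 and 286 (-0.12, -0.37 to 0.14). Igkv1-110 had 17 and 6, and 191 and 384 (knee 0.67, 0.41 to 0.93), above 0 but below the size for a call. Igkv1-117 and Igkv1-110 share 52.3% and 53.5% of their 50-base runs with other immunoglobulin genes, mostly with each other, so their counts can be split between them. The whole Igkv1 family had 72 and 12 counts in the hip (-2.34, -3.41 to -1.50) and 839 and 1151 in the knee (0.12, -0.01 to 0.25).

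Among Igk V genes with at least 50 counts, the largest knee rises lay in the Igkv4 family. Igkv4-58 (chr6:69477238-69477770) had 0 counts for the knee control library against 110 for the library labelled TMX, at least 29.0-fold higher when 3 counts are taken for the 0. Igkv4-70 went from 4 to 128 counts (4.5, 3.27 to 6.56). It shares 60.1% of its 50-base runs with other immunoglobulin genes, so its counts can be split with theirs. Of 19 Igkv4 genes tested in the knee, 7 were called higher and 0 lower, and the 21 of the family together had 658 and 1266 counts (0.60, 0.47 to 0.74). Igkv3-1, the V gene nearest to the J segments, was called lower, from 51 to 25 counts (-1.35, -2.12 to -0.65). The other 3 Igk V genes called lower, Igkv1-122, Igkv1-132 and Igkv3-9, had 8 and 2 counts each and were called under neither library size scaling.

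Many Igk V genes lie in inverted orientation to Igkc and are joined by inversion of the DNA between. The 50 inverted genes had 196 and 144 counts in the hip (-0.25, -0.57 to 0.07) and 2516 and 5718 in the knee (0.84, 0.78 to 0.91). The 32 genes in the orientation of Igkc had 189 and 56 (-1.55, -2.01 to -1.12) and 2024 and 3437 (0.42, 0.34 to 0.50). Inverted genes therefore took a larger share of Igk V counts in each library labelled TMX, 72.0% (65.2 to 78.1) compared to 50.9% (45.8 to 56.0) in the hip and 62.5% (61.5 to 63.5) compared to 55.4% (54.0 to 56.9) in the knee. At Igl, Iglv1 had 7 and 10 counts in the hip pair, and 641 and 1305 in the knee pair (0.69, 0.55 to 0.82), Iglv2 1 and 1, and 138 and 349 (1.00, 0.71 to 1.29), and Iglv3 11 and 1, and 58 and 136 (0.88, 0.44 to 1.36).

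**Figure D4:**
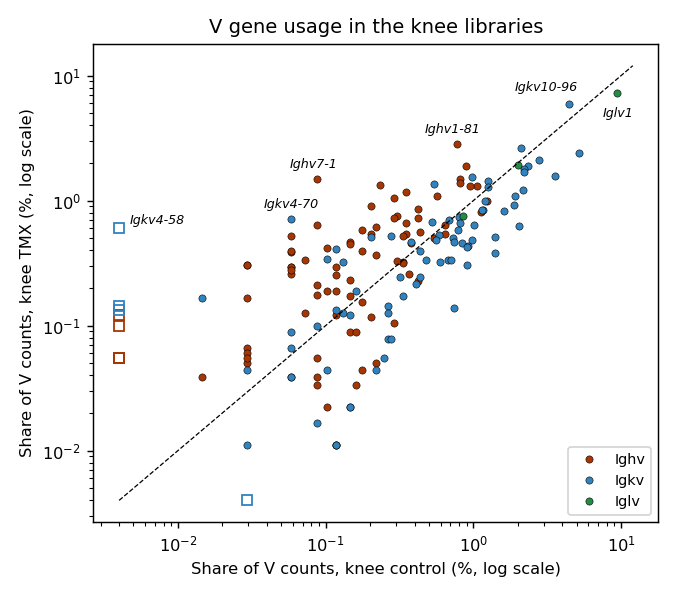
Share (%) of all V counts on each of the 168 V genes in the knee control library (horizontal) and the knee library labelled TMX (vertical), log axes, dashed line of equal share; open squares mark genes with 0 counts in either library, drawn at the edge. Of the Igh V genes 61 of 83 lay above the line and of the Igk V genes 25 of 82, and Iglv1 led both libraries with 9.35% and 7.22%.

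The V counts were spread over many genes in every library, with no dominant V gene. At least 1 count was found for 112 and 104 of the 168 V genes in the hip pair, and 161 and 167 in the knee pair. The effective number of V genes (the number of equally used genes that would give the same Shannon entropy) was 71.3 (66.0 to 77.1) and 70.0 (63.8 to 76.8) in the hip pair, with 76.2 (74.2 to 78.4) and 91.3 (90.0 to 92.7) in the knee pair. Thinned to the 330 V counts of the smallest library, it was 65.9 and 70.0 in the hip pair, with 60.7 and 71.5 in the knee pair. The top 5 V genes held 21.6% and 20.3% of V counts in the hip pair, with 25.3% and 21.0% in the knee pair. Igkv8-30 led both hip libraries with 30 and 17 counts (5.83% and 5.15%), and had 151 and 326 in the knee. Within loci, the knee libraries differed little in spread: the effective number was 51.7 and 53.7 for Igh V genes and 46.3 and 45.1 for Igk V genes. Usage of single genes overlapped by 72.4% within Igh and 78.6% within Igk. The balance of the loci also differed, as Igh V genes made up 21.5% (20.6 to 22.5) of V counts for the knee control library against 39.4% (38.7 to 40.1) for the library labelled TMX. Usage overlapped by 73.0% between the knee libraries (the summed smaller share of each gene; Spearman rho 0.71 over 168 V genes) and by 45.6% between the hip libraries (0.30). The hip values rest on 515 and 330 counts, few for 168 genes.

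Set against the constant counts of the same chain, V counts were higher in the knee library labelled TMX for all 3 chains. Igh V genes had 1.59 counts per 100 heavy constant counts for the knee control library (1.51 to 1.67) against 8.18 (7.99 to 8.38) for the library labelled TMX. For kappa these values were 9.73 (9.43 to 10.0) and 27.3 (26.7 to 28), and for lambda 18.4 (17.1 to 19.8) and 43.5 (41.1 to 46.0). In the hip, the heavy chain had 1.60 (1.31 to 1.93) and 5.34 (4.40 to 6.43). Without Ighm, the hip values were 4.54 (3.72 to 5.49) and 5.87 (4.83 to 7.07), whose intervals overlap. Kappa had 32.2 (28.6 to 36.1) and 28.4 (24.2 to 33.3) in the hip, which did not differ beyond counting error. Lambda had 26.4 (15.03 to 44.2) for the hip control library against 133 (51.6 to 358) for the library labelled TMX, intervals that did not overlap, on 19 V and 72 C counts against 12 and 9.

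**Figure D5:**
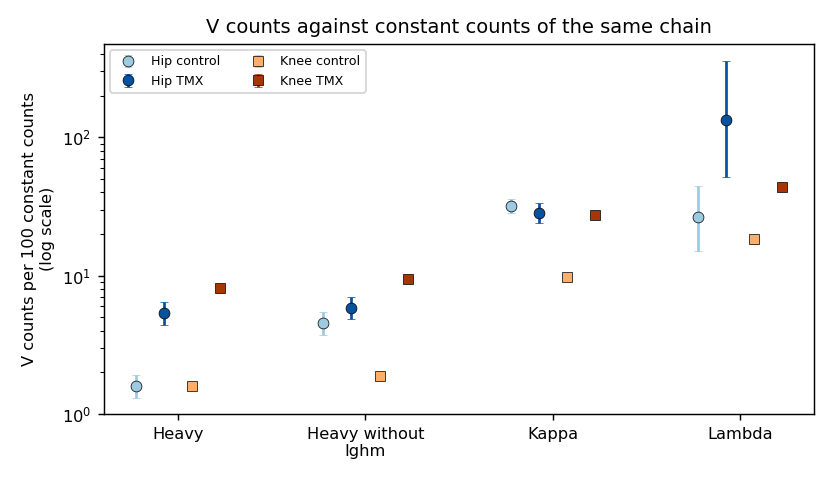
V counts per 100 constant counts of the same chain (log axis), 1 point per library, with exact 95% intervals for counting error. The knee library labelled TMX lay above its control for each chain, and the hip libraries were set apart on the heavy chain (1.60 and 5.34), mainly through Ighm, and on lambda (26.4 and 133), on few counts.

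Other measures were set beside the knee V counts, and among them the J segments stood higher too. A V exon lies at the 5′ end of the mRNA and the C exons at the 3′ end, and V genes are short (338 to 480 bases of annotated exon). Ratios rose with exon length over all genes tested in the knee (Spearman rho 0.22, a description over genes of the same 2 libraries). The 699 genes of the V length range had a median of -0.25 there. In the hip, rho was 0.24, and the 411 genes of that range had a median of -0.21. The J segments, which lie between V and C in the mRNA and were no members, had 49 counts for the knee control library against 154 for the library labelled TMX (1.30, 0.84 to 1.81), with Igh J segments at 16 and 72, Igk J segments at 24 and 74, and Igl J segments at 9 and 8. V pseudogenes had 93 and 98 counts (-0.26, -0.69 to 0.16). The part of exon length and of read coverage along the mRNA in the V ratio was not tested. V genes that share at least 50% of their 50-base runs with another immunoglobulin gene numbered 24 of 168, and 29 shared none. Without those 24 the knee ratio of summed V counts was 1.13.

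Of 18 B cell genes, 11 were called lower and 0 higher in the hip, and 2 were called lower and 0 higher in the knee, where the V genes stood higher. Their median ratio was -1.27 in the hip and -0.52 in the knee, beside 0.01 and 0.02 over all genes. Cd79a and Cd79b, the signalling chains of the B cell receptor, had 253 and 48, and 163 and 31 counts in the hip (-2.19, -2.68 to -1.75, and -2.18, -2.80 to -1.64). In the knee they had 4888 and 2584, and 3863 and 2321 (-1.26, -1.33 to -1.19, and -1.07, -1.15 to -1.0), the 2 genes of the list called there. Under both library size scalings Cd79b was not called in the knee. Ms4a1 (CD20), a surface protein of B cells, had 25 and 7 counts in the hip pair, and 695 and 605 in the knee pair. Cr2 and Fcer2a, receptors of mature B cells, were not called in either pair, with 6 and 12, and 8 and 14 counts in the hip and 129 and 159, and 192 and 270 in the knee. In bulk RNA, fewer cells of the B lineage and less RNA per cell cannot be told apart.

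Genes of V joining had few counts in the hip. Rag1, a subunit of the enzyme that cuts at the signals shown above, had 19 and 1 counts in the hip (-3.50, -9.43 to -1.40) and 393 and 436 in the knee (-0.19, -0.39 to 0.01). Its partner Rag2 had 1 count in each hip library, and 127 and 75 counts in the knee (-1.10, -1.53 to -0.68). Dntt, which adds bases at the joints, had 15 and 3, and 688 and 558, and Igll1 and Vpreb3, of the surrogate light chain and its kin, had 21 and 2, and 36 and 5 in the hip and 537 and 347, and 2362 and 932 in the knee. Vpreb3 was called lower in both pairs (-2.53, -4.36 to -1.30, and -1.68, -1.79 to -1.57). In this list, 4 of 6 tested were called lower in the hip and 1, Il7r (2 and 30 counts), higher, and 2 of 7 were called lower in the knee, of which Rag2 was called under neither library size scaling.

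Plasma cell genes were mixed. Jchain, given above, was not called (0.16, -0.03 to 0.36 in the hip, and -0.50, -0.53 to -0.47 in the knee). Sdc1, the plasma cell surface marker CD138 that other cells also express, had 471 and 148 counts in the hip (-1.47, -1.75 to -1.20) and 2372 and 1773 in the knee. Irf4, a transcription factor of plasma cells and other lymphocytes, had 53 and 424 in the hip (3.19, 2.78 to 3.64) and 528 and 495 in the knee. Mzb1, a chaperone of IgM assembly, had 52 and 39, and 896 and 654. Of 14 genes, 5 were called lower and 1 higher in the hip, and 1, Fkbp11 with 677 and 245 counts, lower in the knee. In the list of class switch and germinal centre genes, 3 of 6 tested were called lower in the hip, including Bcl6 (2288 and 879 counts), and 0 of 8 in the knee, where Bcl6 was called higher under both library size scalings. Among 9 antibody receptor and transport genes, Fcgrt, the neonatal Fc receptor that recycles IgG, was called lower in the hip (3843 and 1483, -1.18, -1.26 to -1.09) and Trim21, a cytosolic Fc receptor, higher (52 and 98), and none was called in the knee. Of 15 T cell genes, 12 were tested in the hip with 3 called lower and 1 higher, and 15 in the knee with 1, Cd247, called higher.

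Globin genes were called lower too, 3 of 4 in the hip and 4 of 4 in the knee, and Hba-a2 was the exception in the hip (8839 and 5921 counts, -0.38). Summed over 9 erythroid genes, among which the 4 globin genes had most counts, they took 0.589% and 0.222% of all counts in the hip pair, compared to 9.99% and 4.94% in the knee pair, and 4 of 9 were called lower in each pair. Under both library size scalings Hbb-bs was not called in the knee. In the knee, Alas2 of heme synthesis (11480 and 16418 counts, 0.18) and Epb42 of the red cell membrane (2158 and 3647, 0.42) had ratios above 0 and were not called. Neutrophil genes took 3.51% and 2.90% in the knee. In the hip, neutrophil genes took 0.0463% and 0.0506% and skeletal muscle genes 12.8% and 12.4%, the latter with 1.05% and 2.15% in the knee. None of the 10 neutrophil genes was called in either pair. Chondrocyte genes were 0.0231% and 0.00911% of hip counts and 0.496% and 0.275% of knee counts. Of these, 4 of 11 tested were called lower and 1 higher in the hip. In the knee, 8 of 12 were called lower (6 under both library size scalings) and 0 higher. The hip gene called higher was Hapln1 (38 and 68 counts, 1.03, 0.44 to 1.65), and it was called under no other scaling. In the hip libraries, labelled as cartilage, muscle genes thus took a far larger share than chondrocyte genes. No erythroid, neutrophil, chondrocyte or B cell gene of these lists stood at 0 in any library. Osteoblast genes took 0.0915% and 0.0216% of hip counts and 1.20% and 0.695% of knee counts, with 5 of 8 called lower in the hip and 4 of 8 in the knee (2 under both library size scalings), and 0 higher in either. Of the 10 muscle genes, 5 were called higher (7 under both library size scalings) and 0 lower in the knee, and 1 higher and 2 lower in the hip. The part of these cell types in the immunoglobulin ratios was not tested.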

How the data were processed

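Poly-A RNA-seq of 4 libraries, 1 per group, was used. The deposited values were whole-number counts per Ensembl gene that the authors made by aligning reads with STAR. The paper gives GRCm39, while the submitters' processing notes name mm10 and STAR 2.0. Hip counts end with the summary lines of HTSeq (25.8% and 24.6% of the reads listed, left out here). The knee counting program was not given in the sources used here. The extraction notes name osteoblasts and the tissue labels articular cartilage. Counts on genes ranged from 34264456 to 38473120. The hip summary lines list 6909975 (control) and 5877393 (TMX) reads that map to several places, which HTSeq by default leaves out of gene counts. Whether the knee counts left out such reads was not given. Where they were dropped, counts of near-identical V genes are too low.

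Symbols, types and positions came from GENCODE on GRCm39. Counts were scaled within each pair by TMM on all genes (edgeR 4.0.16, R 4.3.3), and the size factors of DESeq2 1.42.0 were tried too. With 1 library per group there was no test and no p-value. Intervals are Clopper-Pearson at 95% on the counts and cover counting error only. For the effective number, they come from its sampling variance. Named were all C genes, the 5 V genes with most counts per locus, the 3 largest called rises and falls per pair with at least 50 counts, the leading V gene of each library, and up to 8 genes per list. Genes outside this rule (Igkv8-27, Igkv1-122, Igkv1-132, Igkv3-9, Igkv12-46, Igkv16-104, Fkbp11, Fcer2a, Trim21, Ighv1-80, Ighv9-3, Alas2, Epb42, Hba-a2, Hbb-bs, Hapln1, Cd3d, Ckm, those at the edge of the count minimum, and families) were chosen after their values were seen. The members and gene lists were chosen with earlier results of these data known. Steps were tested on simulated counts. Promoter windows were cut from GRCm39 for all annotated genes, in place of the planned promoter table, which held no V or C gene. Other steps used Python 3.11.15 (scipy 1.17.1).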

Additional observations from a re-analysis of the deposited data

Results flagged for a closer look

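Summed V counts had log2 ratios of opposite direction in the joints, -0.44 in the hip pair and 1.06 in the knee pair, and so did summed Igk V counts (-0.75 and 0.67). With 1 library per group these differences between the joints were not tested, and hip and knee also differ in age, in the Cre driver, in the genotype of the controls, in the tissue (the study describes bone in the knee samples) and in the number of genes listed (50686 and 54838). Among single genes with at least 10 counts in each pair, 4 had intervals on opposite sides of 0: Igkv15-103 (-2.12 in the hip and 1.38 in the knee), Igkv12-46 (-2.0 and 1.09), Igkv16-104 (-4.19 and 0.63) and Iglv3 (-2.74 and 0.88). Each of them had 10 to 12 counts in the hip control library and at most 2 in the hip library labelled TMX. They thus met the hip minimum through the control library alone, where they stood higher. The share of all genes with opposite intervals was not counted, so this is a description only. Igkv16-104 had 10 and 0 there, at least 2.91-fold lower, and its fitted ratio depends on the added count. J segments, which were no members, had 154 counts in the knee library labelled TMX and 49 in the knee control library.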

How the results depend on the processing

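Counting error is the only error these libraries give, and no library could be left out, since each group had 1. No paired analysis was possible because each group held 1 library and the result comes from no test. Of 126 alternative values of the main measures, 72 stayed within counting error or within 1.5 times the count, 53 moved further and 1 changed sign. The median ratio of hip V genes became 0.20 with no count filter, where V genes with 0 or 1 counts make up most of the list. The alternatives for separate sums of V, C, Igh V and Igk V counts, for genes with 10 counts in the control library and for sums without near-identical V genes or without Ighm, and for calls in the gene lists, were chosen after seeing the data. With DESeq2 size factors, Cd3d lost its hip call of higher, and Cd247 and Ckm were called lower there.

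The summed immunoglobulin ratio of the hip was -1.29 with DESeq2 size factors, and that of the knee -0.41 with them, -0.24 with library size alone and -0.24 with immunoglobulin features left out of it. Summed C ratios were -1.36 (hip, DESeq2) and -0.25 (hip, without Ighm), and in the knee -0.37, -0.54 and -0.37 under library size, DESeq2 and library size without immunoglobulin features. Summed V ratios of the knee were 1.24 under both library size scalings and 1.13 without near-identical V genes. For Igh V they were 2.11 under both, and for Igk V 0.85 under both and 0.74 without near-identical genes. Every direction of these sums was kept. Library size scaling moved every knee ratio by 0.18, and the other shifts were below 0.1 in size.

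With 10 counts asked of each library, 2 members were called lower and 0 higher in the hip, and 4 lower and 43 higher in the knee. With 10 counts asked of the control library, the counts were 4 lower and 43 higher in the knee and 0 higher in the hip. Without a count filter 4 were called higher in the hip. Knee members called lower numbered 3 under both library size scalings, 4 at a log2 size of 1.5, and 17 by the interval alone.

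Per base of exon, in the order hip control, hip TMX, knee control and knee TMX, Ighm held 71.0%, 12.1%, 19.9% and 18.4% of heavy constant counts, Igha 25.0%, 82.6%, 64.1% and 69.0%, and IgG 3.29%, 3.96%, 14.4% and 10.9%. Igkc held 90.5% and 88.3% of light constant counts in the knee libraries. The effective number of V genes thinned to equal counts was 65.9 in the hip control library and 60.7 and 71.5 in the knee libraries. It was 79.3 (hip control) and 92.9 (knee TMX) over all V genes, and 62.2, 62.0, 65.9 and 77.1 in the same order without near-identical V genes. The thinned top 5 share of the knee library labelled TMX was 22.8%.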
